A study of Mus musculus with 12 samples.

Results

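The RIKEN 1700 series comprises genes that still carry the clone name of a full-length cDNA, a number beginning with 1700 followed by "Rik", in place of a name given for function. They were selected on 2 criteria, a symbol of that form and a mean of at least 1 FPKM (sequenced fragments scaled to transcript length and to the depth of the library) over the 6 RNA-seq libraries. Of 28643 usable symbols, 509 had such a name and 427 of these reached the level. By GENCODE M21 gene type, 97 of the 427 were protein-coding, 306 were noncoding (long noncoding RNAs and unclassified single-exon transcripts), 15 were pseudogenes and 9 symbols had no GENCODE entry. All libraries came from round spermatids sorted by flow cytometry from 8-week-old male mice, either heterozygous (Igf2bp3+/-, the control group) or homozygous (Igf2bp3-/-) for Cas9-made frameshift alleles of Igf2bp3, a reader of N6-methyladenosine. Every animal thus carried at least a single disrupted allele, and the homozygous males used were chosen for impaired fertility. For each genotype there were 3 RNA-seq libraries of the input extract and 3 RNC-seq (ribosome-nascent chain complex) libraries of sucrose-gradient fractions holding RNAs with 4 or more ribosomes. The question was how the coding and noncoding members distributed between polysomes and total RNA, and whether loss of the second Igf2bp3 allele changed either.

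The 1700-numbered clones were drawn from a full-length cDNA library of adult mouse testis, the tissue with one of the richest repertoires of long noncoding RNAs and of poorly characterised small proteins. Many of the coding genes of this kind serve the flagellum, the acrosome or sperm chromatin. In round spermatids transcription is vigorous, and many mRNAs are stored in ribonucleoprotein particles before they enter polysomes. The RNC-seq level over the RNA-seq level of a gene is a relative measure of its RNA in the polysome fractions, from separately scaled libraries. Whether an RNA found in these fractions was bound by ribosomes was not tested. Long noncoding RNAs are defined by lacking a recognised protein product, but cytoplasmic ones are often found in ribosome-containing fractions.

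The depth of each library was estimated from the spacing of low FPKM values, by which 1 FPKM on a transcript of 1 kb rested on 18.2 to 48.6 fragments. Libraries within a group correlated at Pearson's r of 0.961 to 0.990 over 12265 genes. All 8 of 8 round spermatid markers reached 1 FPKM in RNA-seq, and the summed level of 6 Leydig cell markers was 15.2 to 22.5 FPKM in the Igf2bp3+/- RNA-seq libraries against 48.4 to 54.7 in the Igf2bp3-/- ones. Igf2bp3 RNA ran from 33.4 to 38.6 FPKM in Igf2bp3+/- and from 31.4 to 32.5 in Igf2bp3-/- RNA-seq, so the RNA level did not check the genotype labels, as a frameshift need not remove the transcript. A single transcript, CT010467.1, held 5.67% to 13.3% of summed FPKM in RNA-seq and 8.14% to 19.4% in RNC-seq, which bears on every FPKM of a library alike.

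The most abundant coding members stood among the highly expressed genes of the cell. Their RNA-seq level is a description, since it chose the members. 1700003E16Rik (GRCm38 chr6:83156404-83162945, plus strand) was the highest, at 705, 844 and 754 FPKM in the Igf2bp3+/- and 818, 870.5 and 870.4 FPKM in the Igf2bp3-/- RNA-seq libraries. In RNC-seq it measured 444, 590.0 and 553 FPKM in Igf2bp3+/- and 769, 1201 and 623 FPKM in Igf2bp3-/-, so 2 of the Igf2bp3-/- RNC-seq libraries reached or passed the RNA-seq range and the other 4 RNC-seq libraries lay below it. 1700003F12Rik followed with 663 to 734 FPKM in the 6 RNA-seq libraries and 868 to 1617 FPKM in the 6 RNC-seq libraries, with no overlap between assays. 1700029F12Rik (521 to 752 FPKM in RNA-seq) and 1700037H04Rik (515 to 722 FPKM) were of a like level. 1700037H04Rik was higher in every RNC-seq library, at 727 to 1561 FPKM, and 1700029F12Rik overlapped between the assays, at 702 to 1369 FPKM in RNC-seq. 1700010I14Rik and 1700013G24Rik completed the 6 most abundant, with RNA-seq means of 470.1 and 449 FPKM. 1700010I14Rik lay at 396 to 537 FPKM in RNC-seq, overlapping its RNA-seq values of 419 to 572 FPKM, and its log2 RNC/RNA of -0.02 became 0.10 after the libraries were centred on their medians. 1700013G24Rik went the other way from most members, with 378 to 509.7 FPKM in RNA-seq and 222 to 409.7 FPKM in RNC-seq, which overlapped in the upper RNC-seq values.

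The noncoding members were lower by about an order of magnitude, with a median RNA-seq mean of 8.34 FPKM against 86.9 FPKM for the coding members, and a top end that overlapped the coding range. 1700008K24Rik, a lincRNA of 2 exons (chr17:49112263-49113535, minus strand), measured 287, 308 and 249 FPKM in Igf2bp3+/- and 308, 319 and 349 FPKM in Igf2bp3-/- RNA-seq. Its RNC-seq values of 635, 437 and 518 FPKM in Igf2bp3+/- and 421, 392 and 550.0 FPKM in Igf2bp3-/- all lay above the RNA-seq ones. 1700018B24Rik, which GENCODE lists as a lincRNA and RefSeq as a pseudogene, rose from 142 to 279 FPKM in RNA-seq to 420.0 to 661 FPKM in RNC-seq. 1700030C12Rik, with 13.6% of its exonic bases antisense to another gene, went from 127 to 172 FPKM to 177 to 252 FPKM, again without overlap. 1700041C23Rik, a 6-exon transcript of 395 bases, had RNA-seq values of 86.7 to 170.3 FPKM and RNC-seq values of 130.2 to 573 FPKM, the lowest RNC-seq value coming from Igf2bp3-/- replicate 2. 1700010D01Rik on the X chromosome (104 to 159.8 FPKM in RNA-seq) has a near-identical copy, Gm5941, so its level is uncertain. 1700051A21Rik, with 26.3% of its exonic bases antisense to Slc13a5, measured 119 to 149.3 FPKM in RNA-seq and 144 to 204 FPKM in RNC-seq.

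**Figure D1:**
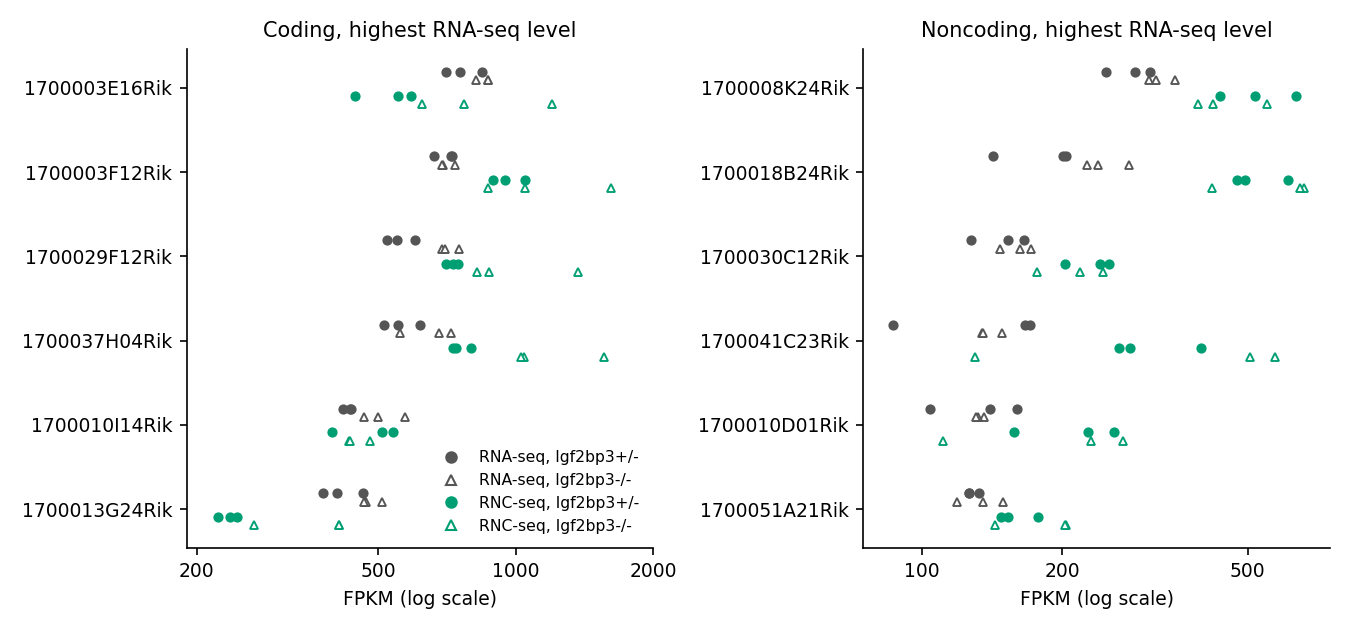
FPKM on a log axis of the 6 coding and the 6 noncoding members with the highest mean RNA-seq level, 1 symbol per library (grey, RNA-seq; green, RNC-seq; filled circles, Igf2bp3+/-; open triangles, Igf2bp3-/-). The RNC-seq symbols lie right of the RNA-seq ones for most genes, while 1700013G24Rik shows 222 to 409.7 FPKM in RNC-seq against 378 to 509.7 FPKM in RNA-seq.

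RefSeq lists 16 members under a newer name, 7 of them without a GENCODE entry under the clone name. In the test described below, 9 of the 16 were higher in RNC-seq than in RNA-seq and 0 were lower, where 65.1% of all members and 21.8% of all genes tested were higher and 6.32% and 29.8% lower, with log2 ratios from -0.53 to 1.56 in limma and the lowest 2 short of the limit. Those described here were chosen for the role that their name gives, with their values known. 1700024P04Rik is H2bl1, a testis variant of histone H2B, and measured 131 to 217 FPKM in RNA-seq and 175 to 374 FPKM in RNC-seq (log2 RNC/RNA 0.52, adjusted p = 0.0347). Cfap299 (1700007G11Rik) and Cfap97d1 (1700006E09Rik) are cilia- and flagella-associated genes. Cfap299 went from 97.5 to 155 FPKM in RNA-seq to 137 to 219 FPKM in RNC-seq (log2 0.48, adjusted p = 0.00942), and Cfap97d1 from 42.2 to 70.6 FPKM to 48.1 to 89.1 FPKM (log2 0.25, adjusted p = 0.240). The membrane-spanning 4A family members Ms4a19 (1700025F22Rik) and Ms4a20 (1700017D01Rik) had log2 RNC/RNA of 0.85 and 0.20, with adjusted p of 0.000659 and 0.222. Fam24b (1700007K09Rik), for which GENCODE has no entry, had the largest ratio of the 16, with 57.8 to 126 FPKM in RNA-seq against 182 to 319 FPKM in RNC-seq, 2.96-fold. Acsbg3 (1700061G19Rik), of the acyl-CoA synthetase family, and Mtres1 (1700021F05Rik), a mitochondrial transcription rescue factor, had log2 ratios of -0.10 and 0.01 and did not pass the test.

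Both classes were higher in RNC-seq than in RNA-seq, the noncoding members by slightly more. The median log2 RNC/RNA was 0.48 for the 97 coding members and 0.64 for the 306 noncoding members, a coding minus noncoding difference of -0.16, that is 1.40-fold and 1.56-fold. Over all 19816 genes tested the median was -0.11. Since RNA-seq FPKM both chose the members and is the denominator, the values to read them against are those of all genes under the same minimum, -0.18 for 9347 coding genes and 0.40 for 1869 noncoding genes. Another group of RIKEN testis clone names under the same minimum had medians of 0.00 for 105 coding and 0.38 for 396 noncoding genes.

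In a limma model of log2(FPKM + 0.1) over all 12 libraries, with Benjamini-Hochberg adjustment over all genes tested and a limit of 0.05, 59 of 97 coding members were higher in RNC-seq than in RNA-seq and 8 were lower. That is 60.8% and 8.25%, where 23.2% of all coding genes were called higher and 39.6% lower. Of the 306 noncoding members 204 were higher and 17 lower, 66.7% and 5.56%, where all noncoding genes gave 47.5% and 14.1%, and all genes tested 21.8% and 29.8%. All 6 RNC-seq libraries lay above all 6 RNA-seq libraries for 33 coding members (34.0%) and 108 noncoding members (35.3%), against 12.9% of all coding genes, 24.4% of all noncoding genes and 10.6% of all genes tested. The reverse held for 4 coding (4.12%) and 6 noncoding members (1.96%), against 22.6%, 6.58% and 15.4%. At least a 2-fold difference with the same limit was met by 13 coding and 60 noncoding members above, against 5.21% of all coding genes, 12.6% of all noncoding genes and 6.55% of all genes tested. It was met by no coding and 5 noncoding members below, against 14.1%, 6.85% and 12.6%.

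Each RNC-seq library gave the same order when set against the mean of its genotype's RNA-seq libraries. The coding median ran from 0.16 to 0.72 and the noncoding median from 0.27 to 1.01, and the coding minus noncoding difference was negative in 6 of 6, from -0.29 to -0.11 with an SD of 0.0754. The lowest library for both classes was Igf2bp3-/- RNC-seq replicate 2, and the highest Igf2bp3+/- RNC-seq replicate 1. Libraries of a genotype share the same RNA-seq mean, so the spread between RNA-seq libraries is not part of these differences. By median log2 level, the coding minus noncoding gap overlapped between the assays, at 3.22 to 3.45 in RNA-seq and 2.96 to 3.42 in RNC-seq. Centring the libraries on their medians raised every log2 ratio by 0.12 and the calls to 69 higher and 6 lower coding members and 243 higher and 15 lower noncoding members. Other genes moved alike, all coding genes to 29.5% higher and 33.2% lower and all noncoding genes to 57.8% and 11.8%. Quantile normalization lowered the coding median to 0.28, with 49 coding members higher and 19 lower, or 72.1% higher among those called in place of 88.1%, and left the noncoding median at 0.66. Under it all coding genes gave 24.4% higher and 39.9% lower, or 37.9% higher among those called. In Igf2bp3+/- alone the medians were 0.49 and 0.70, and in Igf2bp3-/- alone 0.45 and 0.59.

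**Figure D2:**
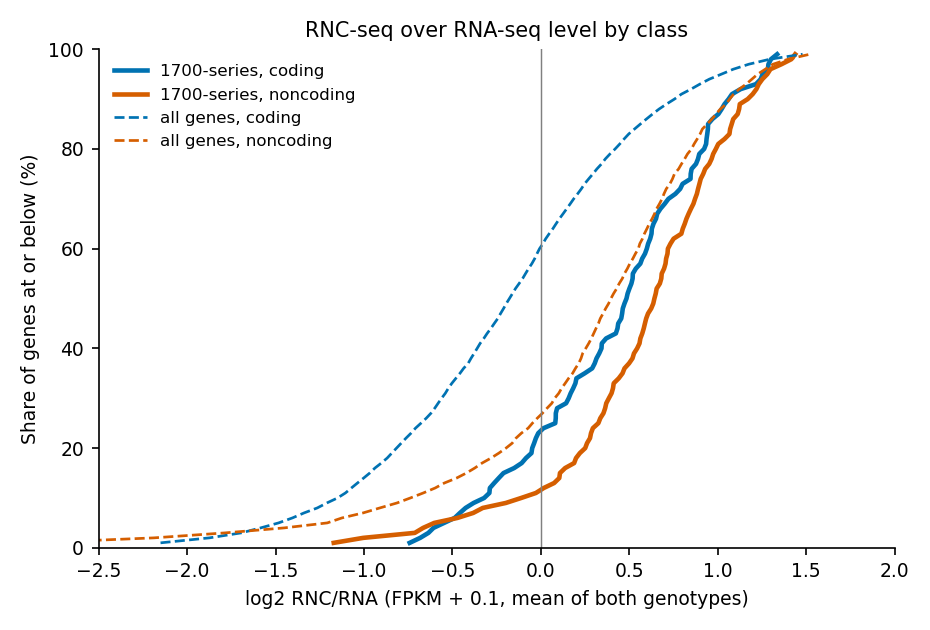
Cumulative share of genes (percent) by log2 RNC/RNA of FPKM + 0.1, drawn from the 1st to the 99th percentile, for coding (blue) and noncoding (orange) members (solid) and for all coding and noncoding genes with an RNA-seq mean of at least 1 FPKM (dashed). The medians are 0.48 and 0.64 for the members against -0.18 and 0.40 for all genes, so the solid lines lie right of the dashed line of the same color over most of the range.

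The 5 noncoding members with the highest ratios had a longest frame of 37 to 77 codons. The longest frame from an AUG to a stop codon in any of their annotated transcripts had 42 codons in 1700112L15Rik, 77 in 1700048O20Rik, 59 in 1700047M11Rik, 37 in 1700017I07Rik and 54 in 1700006H21Rik. The first 4 frames are shown as the longest coding potential of RNAs that were enriched in the polysome fractions, read from GENCODE M21 transcripts (GRCm38), with the start and stop codons in capitals.
1700112L15Rik: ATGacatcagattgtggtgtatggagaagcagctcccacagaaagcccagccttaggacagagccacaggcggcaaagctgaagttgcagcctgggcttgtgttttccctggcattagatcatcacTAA
1700048O20Rik: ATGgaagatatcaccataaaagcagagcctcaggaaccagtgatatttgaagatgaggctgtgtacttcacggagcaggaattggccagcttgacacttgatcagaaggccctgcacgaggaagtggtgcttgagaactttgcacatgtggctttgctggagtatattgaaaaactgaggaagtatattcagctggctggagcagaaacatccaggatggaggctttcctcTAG
1700047M11Rik: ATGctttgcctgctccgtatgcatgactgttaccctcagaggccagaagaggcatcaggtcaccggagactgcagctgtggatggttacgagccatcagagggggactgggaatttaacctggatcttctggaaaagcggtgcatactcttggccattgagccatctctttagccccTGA
1700017I07Rik: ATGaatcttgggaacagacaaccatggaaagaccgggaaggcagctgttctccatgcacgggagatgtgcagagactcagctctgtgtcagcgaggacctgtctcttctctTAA

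1700112L15Rik, a single-exon transcript not yet classified by GENCODE (chr8:95551793-95552302, plus strand), had the highest ratio of all members. Its RNA-seq levels were 5.21, 4.08 and 3.28 FPKM in Igf2bp3+/- and 4.77, 4.16 and 6.004 FPKM in Igf2bp3-/-. Its RNC-seq levels were 16.5, 14.2 and 12.0 FPKM in Igf2bp3+/- and 17.1, 9.85 and 20.6 FPKM in Igf2bp3-/-. No RNC-seq library came within the RNA-seq range, and the log2 ratio was 1.68 ± 0.18 (SE, adjusted p = 9.01e-06). 1700048O20Rik (chr9:121937223-121947016, plus strand) had 19.8 to 32.7 FPKM in RNA-seq and 47.4 to 115 FPKM in RNC-seq, a log2 ratio of 1.57 ± 0.20, but shares 18.9% of its exonic bases on the same strand with Gm49343. Its 77-codon frame took up 51.3% of a 456-base transcript. 1700047M11Rik (chr1:182287990-182303325, plus strand), whose longest transcript of 2607 bases makes it one of the longer noncoding members, had 5.27 to 9.22 FPKM in RNA-seq and 15.1 to 28.6 FPKM in RNC-seq. 1700017I07Rik, which starts 542 bases from the divergent Mir184, and 1700006H21Rik had log2 ratios of 1.44 ± 0.17 and 1.42 ± 0.15.

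At the other end stood a small set of noncoding members that were depleted from the polysome fractions. 1700025N23Rik (chr6:39063878-39067598, minus strand), classed as antisense though none of its exonic bases overlap an exon of another gene, measured 11.3, 6.90 and 6.82 FPKM in Igf2bp3+/- and 7.62, 3.78 and 5.39 FPKM in Igf2bp3-/- RNA-seq. In RNC-seq it fell to 1.58, 1.29 and 0.844 FPKM in Igf2bp3+/- and 2.31, 1.23 and 1.45 FPKM in Igf2bp3-/-. The assays did not overlap, and the log2 ratio was -2.17 ± 0.22 (adjusted p = 5.52e-06). 1700008J07Rik, antisense over 21.5% of its exonic bases to the chromatin remodeler gene Srcap, went from 18.8 to 21.3 FPKM in RNA-seq to 6.24 to 15.8 FPKM in RNC-seq (log2 -1.13 ± 0.18, adjusted p = 0.000196). 1700024B18Rik and 1700039I01Rik also passed the test, with log2 ratios of -1.76 ± 0.56 and -1.17 ± 0.38, each with an adjusted p of 0.0177, at RNA-seq means of 1.20 and 2.24 FPKM. 1700097M23Rik had a log2 ratio of -2.004 ± 0.91 and did not pass (adjusted p = 0.0812), being listed at 0 in 3 RNC-seq libraries and in Igf2bp3+/- RNA-seq replicate 2. The longest frames of these 5 RNAs ranged more widely than those above, with 74 codons in 1700025N23Rik, 45 in 1700024B18Rik, 185 in 1700008J07Rik and 102 in 1700097M23Rik, while the transcript of 1700039I01Rik held none. The first 2 are shown, from the called members with the lowest ratios.
1700025N23Rik: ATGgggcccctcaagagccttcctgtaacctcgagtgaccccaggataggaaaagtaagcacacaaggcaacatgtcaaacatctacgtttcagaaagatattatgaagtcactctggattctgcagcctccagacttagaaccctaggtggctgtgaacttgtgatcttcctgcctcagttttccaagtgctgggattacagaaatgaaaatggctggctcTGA
1700024B18Rik: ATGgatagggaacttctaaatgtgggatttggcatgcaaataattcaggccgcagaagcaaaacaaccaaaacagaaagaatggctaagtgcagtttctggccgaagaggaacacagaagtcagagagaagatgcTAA

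The frame length of the noncoding members bore no visible relation to their ratio. Spearman's rho between the longest frame and log2 RNC/RNA was -0.02 over 306 noncoding members, which share their libraries, and is a description. The 119 noncoding members with a longest frame under 50 codons had a median of 0.64, the 142 with 50 to 99 codons 0.71, and the 45 with 100 codons or more 0.52. The most abundant noncoding member, 1700008K24Rik, illustrates the first of these, with a longest frame of 48 codons and a log2 ratio of 0.68 ± 0.12 (adjusted p = 0.000335).
1700008K24Rik: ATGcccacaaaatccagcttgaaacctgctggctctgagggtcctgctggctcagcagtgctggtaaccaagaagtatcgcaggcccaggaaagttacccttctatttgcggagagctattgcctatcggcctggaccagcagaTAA

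Among coding members the 5 highest ratios belonged to mRNAs whose longest transcript had 624 to 1105 bases. 1700001P01Rik (chr11:97771481-97775918, minus strand), with a coding sequence of 465 bases, measured 113, 123 and 89.0 FPKM in Igf2bp3+/- and 154, 168 and 187 FPKM in Igf2bp3-/- RNA-seq. Its RNC-seq values were 354, 271 and 288 FPKM in Igf2bp3+/- and 507, 278 and 499.7 FPKM in Igf2bp3-/-, all above the RNA-seq range, and the log2 ratio was 1.39 ± 0.15 (adjusted p = 9.26e-06). 1700067P10Rik went from 70.4 to 111 FPKM in RNA-seq to 160.4 to 299.3 FPKM in RNC-seq, 1700069L16Rik from 5.13 to 8.63 to 14.2 to 20.7 FPKM, and 1700020D05Rik from 318 to 466 to 649 to 1180 FPKM. GENCODE lists 1700067P10Rik and 1700069L16Rik as protein-coding and RefSeq as noncoding. The fifth, 1700001F09Rik (33.5 to 59.6 FPKM in RNA-seq, 60.3 to 184 FPKM in RNC-seq), has several near-identical copies on other loci and its level is uncertain.

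The lowest coding ratio was that of the X-linked 1700080O16Rik, at 22.6 to 31.0 FPKM in RNA-seq and 12.0 to 18.8 FPKM in RNC-seq without overlap (log2 -0.81 ± 0.13, adjusted p = 0.000158). 1700006A11Rik, with 12 exons, had 9.89 to 13.3 FPKM against 4.21 to 9.54 FPKM, and 1700017B05Rik, with a coding sequence of 3069 bases, 28.5 to 39.3 FPKM against 14.04 to 33.3 FPKM. 1700013G24Rik and 1700017N19Rik had log2 ratios of -0.63 ± 0.12 and -0.60 ± 0.12. Each of these 5 passed the test, and none reached a 2-fold difference.

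**Figure D3:**
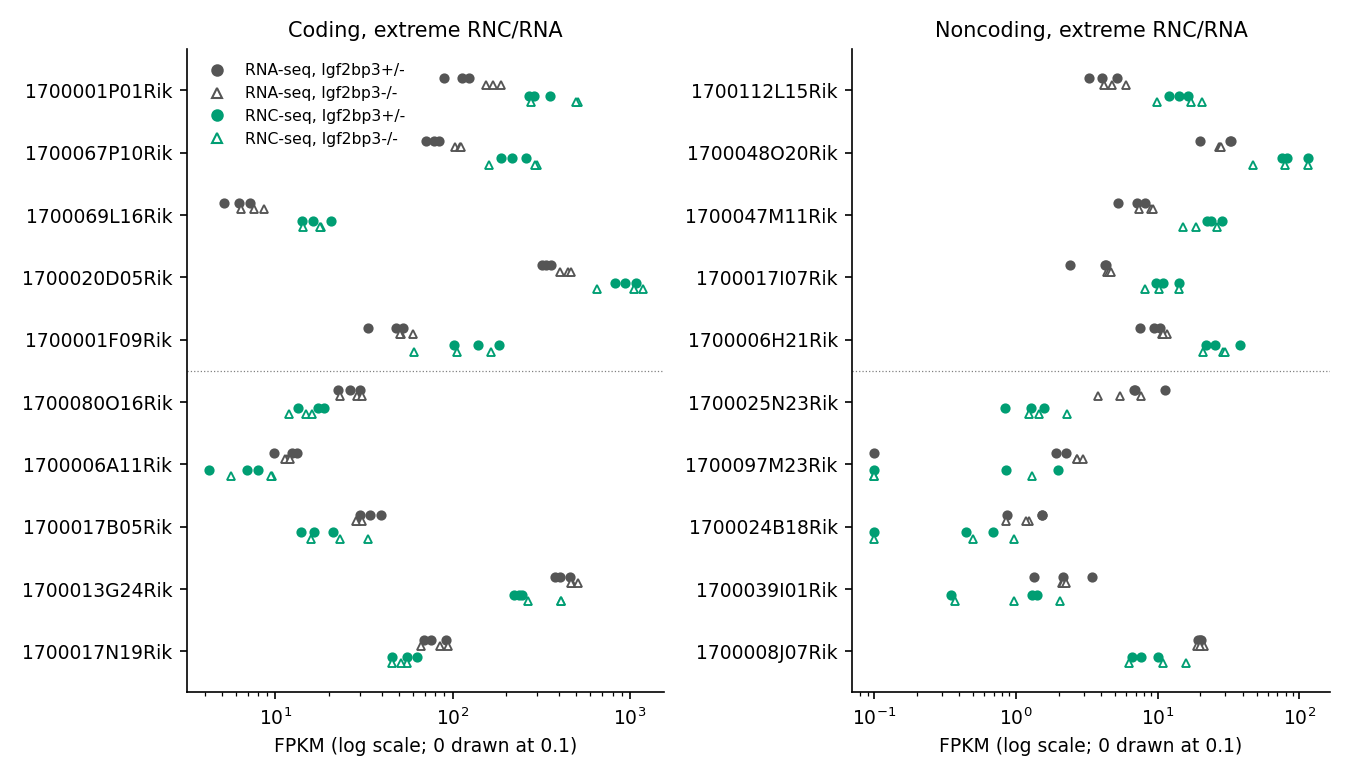
FPKM on a log axis of the 5 members with the highest (above the dotted line) and the 5 with the lowest log2 RNC/RNA in each class, 1 symbol per library (grey, RNA-seq; green, RNC-seq; filled circles, Igf2bp3+/-; open triangles, Igf2bp3-/-), with values of 0 drawn at 0.1. 1700025N23Rik shows 0.844 to 2.31 FPKM in RNC-seq against 3.78 to 11.3 FPKM in RNA-seq, and 1700112L15Rik 9.85 to 20.6 against 3.28 to 6.004 FPKM.

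Transcript length moved with the ratio, in the series as in all genes. The longest transcript had a median of 1101 bases for coding members and 710.5 for noncoding members, against 3010 for all coding and 893 for all noncoding genes under the same minimum. Spearman's rho between length and log2 RNC/RNA was -0.45 for coding members and -0.25 for noncoding members, against -0.54 and -0.28 for all coding and noncoding genes, and -0.55 between the coding sequence and the ratio of coding members. All 29 coding members with a coding sequence under 150 codons had a ratio above 0, with a median of 0.85. The 49 with at least 150 and under 300 codons had a median of 0.47, and the 19 with 300 codons or more a median of -0.10. Values of all coding genes by coding sequence are not given here. By transcript length, a ratio above 0 was held by 57 of all 64 coding genes up to 500 bases. It was held by 555 of all 646 above 500 and up to 1000 bases.

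Within length classes the order of coding and noncoding members varied, and the members stood above the other genes of their class most clearly among long transcripts. Up to 500 bases the 5 coding members had a median log2 ratio of 0.61 against 0.92 for all coding genes, and the 72 noncoding members 0.71 against 0.54 for all noncoding genes. For transcripts above 500 and up to 1000 bases the median log2 ratio was 0.82 for 32 coding members and 0.76 for all 646 coding genes, and 0.69 for 154 noncoding members and 0.56 for all 728 noncoding genes. From there to 1500 bases the coding values were 0.45 for 28 members and 0.34 for all, and the noncoding ones 0.49 for 36 members and 0.36 for all. From there to 2500 bases the 15 coding members had 0.34 against 0.02, and the 28 noncoding members 0.31 against 0.10. Over 2500 bases the 17 coding members had 0.15 against -0.44, and the 16 noncoding members 0.52 against 0.03, both groups being small. The share of length in the difference between coding and noncoding members was not tested.

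**Figure D4:**
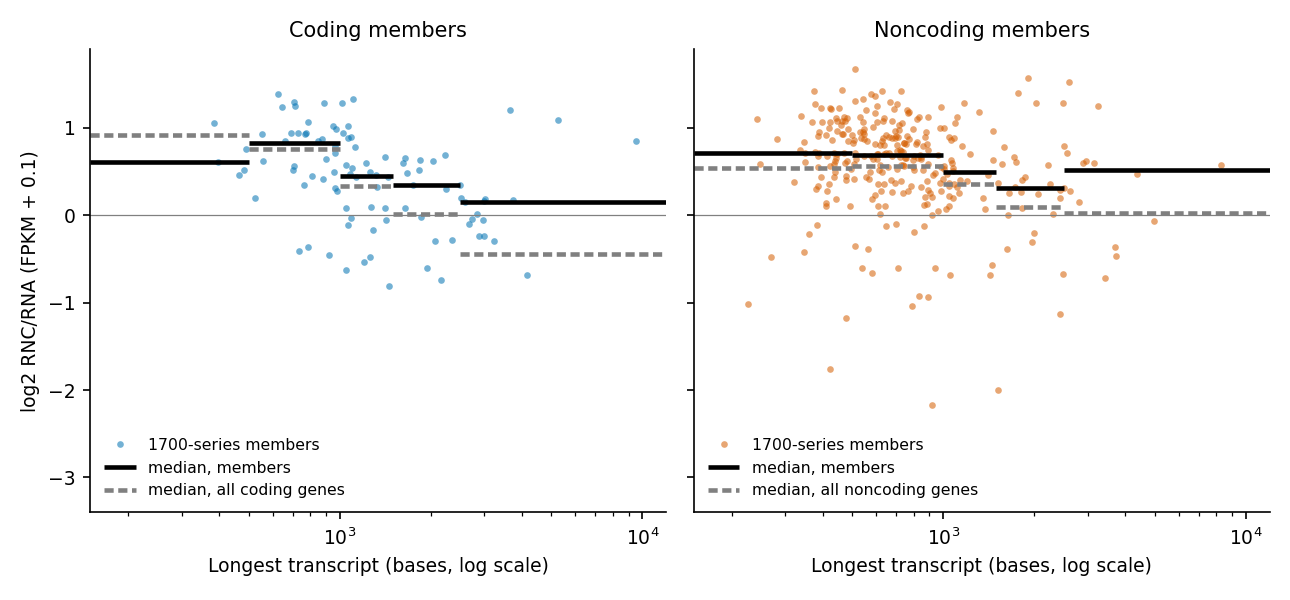
Log2 RNC/RNA of FPKM + 0.1 against the length of the longest GENCODE transcript (bases, log scale), 1 dot per coding (left) or noncoding (right) member, with the median per length class for members (black) and for all genes of that class with an RNA-seq mean of at least 1 FPKM (grey, dashed). Coding medians of members fall from 0.82 in the class above 500 and up to 1000 bases to 0.15 above 2500 bases. Those of all coding genes fall from 0.76 to -0.44. Up to 500 bases the medians are 0.61 for 5 coding members and 0.92 for all coding genes.

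Among kinds of noncoding members the 172 lincRNAs had a median log2 ratio of 0.68, the 79 antisense transcripts 0.59, the 20 processed transcripts 0.41, the 10 from bidirectional promoters 0.50 and the 23 still unclassified 0.40. The 260 spliced noncoding members had a median of 0.68, with 184 higher and 7 lower, and the 46 single-exon ones 0.36, with 20 higher and 10 lower. Of all noncoding genes under the same minimum, 50.4% of the spliced were higher and 11.6% lower (median 0.44), and 31.0% of the single-exon ones higher and 27.8% lower (median 0.11), against 43.5% and 21.7% of the single-exon members. Exons shared with another gene were found in 22 coding and 81 noncoding members. Whether counting used strand is not given in the sources used here, so reads of the 20 coding and 76 noncoding members that overlap an exon on the opposite strand cannot be told apart from those of the partner. Without all members that share exons the medians were 0.46 and 0.65. The 15 pseudogene members had a median of 0.63, from -2.30 to 1.42, and the 9 without a GENCODE entry a median of 0.62. Among pseudogenes, named after their values were seen, 1700001J11Rik was as abundant as the leading coding members, at 489 to 586 FPKM in RNA-seq and 406 to 976 FPKM in RNC-seq, and has the near-identical copies Gm7435 and Gm7444. 1700024J04Rik, a pseudogene in GENCODE and a coding gene in RefSeq, had the lowest ratio of all members, with 6.32 to 11.7 FPKM in RNA-seq and 1.19 to 2.12 FPKM in RNC-seq (log2 -2.30 ± 0.16, adjusted p = 3.76e-07). Near-identical copies elsewhere were found for 13 members.

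The start-site regions of the members were searched for promoter motifs, among them the GC box and the cAMP response element, and the shares are given as a description, without a test. RefSeq windows (GRCm38.p6) running from 250 bases before to 50 after the start were found for 283 members, 82 coding and 192 noncoding among them. Of 9 motifs searched on both strands, chosen after the expression values had been seen, TGATGTCA was in 13.3% of the coding members' and 10.9% of the noncoding members' windows, against 3.41% for all coding genes and 6.80% for all noncoding genes with an RNA-seq mean of at least 1 FPKM, and 3.62% of all windows. The element TGACGTCA itself, the site of CREM, a transcription factor of round spermatids, was in 1.02% and 2.49%, against 3.33% for all coding genes, 2.67% for all noncoding genes and 1.79% of all windows. The GC box GGGCGG was in 24.5% and 19.4%, against 57.3% for all coding genes, 25.9% for all noncoding genes and 35.7% of all windows. TGACG, which lies within TGACGTCA and TGACGTAA, was in 20.4% of the coding and 19.9% of the noncoding members' windows, against 31.1% for all coding genes, 22.2% for all noncoding genes and 20.8% of all windows. TATAAA was in 9.18% and 10.9%, against 7.26%, 13.0% and 13.6%, and CCAAT in 35.7% and 39.3%, against 39.0%, 37.2% and 37.4%. CACGTG was in 9.18% and 10.9%, against 9.85%, 7.12% and 7.15%, and TGACGTAA in 1.02% and 1.99%, against 0.850%, 1.05% and 0.499%. The palindromic X-box of RFX factors was in 0.0% and 0.498%, against 0.0311%, 0.0809% and 0.0183%. A match is a run of letters and not evidence of binding. The 200 bases before the start are given for 2 abundant coding and 2 abundant noncoding members that hold TGATGTCA there. Not every chromosome was open to this choice, so these 4 need not be the most abundant such members. The motif or its reverse complement is in capitals.
1700003H04Rik, chr3:124581092-124581291, minus strand: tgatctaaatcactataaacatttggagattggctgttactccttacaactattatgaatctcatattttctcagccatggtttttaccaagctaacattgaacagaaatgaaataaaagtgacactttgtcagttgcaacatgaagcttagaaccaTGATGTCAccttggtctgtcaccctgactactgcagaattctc
1700001C19Rik, chr17:47414712-47414911, minus strand: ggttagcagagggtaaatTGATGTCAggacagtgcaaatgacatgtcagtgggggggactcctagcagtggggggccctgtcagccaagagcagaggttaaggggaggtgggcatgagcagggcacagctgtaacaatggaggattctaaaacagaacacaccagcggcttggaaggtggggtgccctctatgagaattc
1700010D01Rik, chrX:95733266-95733465, minus strand: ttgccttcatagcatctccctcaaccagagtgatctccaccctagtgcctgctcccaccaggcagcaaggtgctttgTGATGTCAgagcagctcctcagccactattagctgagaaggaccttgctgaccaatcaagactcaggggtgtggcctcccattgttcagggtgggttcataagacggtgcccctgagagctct
1700027A15Rik, chr1:73015836-73016035, plus strand: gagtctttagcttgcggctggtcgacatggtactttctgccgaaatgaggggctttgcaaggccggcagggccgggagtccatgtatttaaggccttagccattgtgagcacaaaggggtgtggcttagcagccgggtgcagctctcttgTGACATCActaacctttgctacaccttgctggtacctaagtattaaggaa

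The 4 genes differed in ratio. 1700003H04Rik measured 159 to 279.8 FPKM in RNA-seq and 312 to 521 FPKM in RNC-seq, and 1700001C19Rik 143 to 198 FPKM and 212 to 358 FPKM, both without overlap. The noncoding 1700010D01Rik overlapped between the assays, with 111 to 270.2 FPKM in RNC-seq. The antisense 1700027A15Rik, which shares 2.87% of its exonic bases with Tnp1, the gene of a transition protein of spermatid chromatin, also overlapped between the assays, at 79.96 to 160.1 FPKM in RNA-seq and 66.1 to 148 FPKM in RNC-seq. Tnp1 had means of 1075 FPKM in RNA-seq and 2858 FPKM in RNC-seq. As strand use is unknown, the level of 1700027A15Rik is uncertain.

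Loss of the second Igf2bp3 allele changed no member past the limit in RNA-seq. By limma, 0 of 427 members had an adjusted p under 0.05, where 0.256% of all 20352 genes tested did (52 genes), and the smallest adjusted p of a member was 0.115. At a nominal p under 0.05, 75 members were higher in Igf2bp3-/- (17.6%) and 10 lower (2.34%), where 10.4% and 5.32% of all genes were. The coding members weighed most in this. Of 97, 82 had a change above 0 and 36 were higher at a nominal p under 0.05 (37.1%), with a median log2 change of 0.21, against 14.7% and a median of 0.06 for all coding genes. The 306 noncoding members had a median of 0.14, against 0.10 for all noncoding genes.

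The shift rested in part on 1 library. In Igf2bp3+/- RNA-seq replicate 3, 392 of 427 members lay below their own mean over the 6 RNA-seq libraries, with a median log2 deviation of -0.35, against 96 to 214 members in the other 5. The median log2 level of all genes tested was also lowest in this library, at 1.02 against 1.12 to 1.22 in the other 5. The share of all genes below their own mean is not given here. CT010467.1 held 13.3% of summed FPKM there and 5.67% to 9.37% in the other 5, and its part in the shift was not tested. Without replicate 3 the median over the 427 members went from 0.15 to 0.01, and 48 members were higher against 53 lower at a nominal p under 0.05 (11.2% and 12.4%, where 7.29% and 6.11% of all genes were). The classes parted, with 24 coding members higher and 4 lower, against 10.1% and 5.49% of all coding genes, and 18 noncoding members higher and 47 lower, or 5.88% and 15.4% against 5.03% and 11.1% of all noncoding genes. One gene, 1700095K22Rik, was then called, with a log2 change of -0.69 ± 0.09 (adjusted p = 0.0399). How many of all genes were called in that fit is not given here, so this call describes the member alone. The coding median was then 0.13 and the noncoding median -0.02, against 0.04 and -0.02 for all coding and noncoding genes. Leaving out Igf2bp3-/- RNA-seq replicate 3 instead left 36 members higher by that measure (8.43%, where 5.76% of all genes were), 19 of them coding (19.6%, against 7.79% of all coding genes). The members lower in that fit were 11 (2.58%, where 3.89% of all genes were), 0 of them coding (against 3.92% of all coding genes). Quantile normalization brought the coding median to 0.07, against -0.01 for all coding genes. It gave 21 coding members higher (21.6%, against 9.28%) and 6 lower (6.19%, against 9.28%). Beside this, with all 6 RNA-seq libraries kept, the median log2 change was 0.26 for the 8 round spermatid markers, 7 of which had a change above 0. It was -0.18 for the 6 elongating spermatid markers, 1 of which did. The 6 spermatocyte markers had a median of 0.11, with 5 above 0, and the spermatogonial markers a median of -0.02. Marker values without Igf2bp3+/- RNA-seq replicate 3 are not given here. The 6 Leydig cell markers had a median of 1.25. The summed level of 5 Sertoli cell markers was 3.31 to 4.05 FPKM in Igf2bp3+/- and 6.90 to 7.65 FPKM in Igf2bp3-/- RNA-seq. Clu alone was at 2.74 to 3.63 and 6.63 to 6.79 FPKM, while Rhox5 had a log2 change of -0.81. The sum of 5 peritubular cell markers was 2.08 to 2.43 and 5.41 to 6.69 FPKM. Dcn alone was at 0.665 to 1.01 and 3.36 to 4.73 FPKM, while Myh11 had a log2 change of -0.30. That of 6 blood and macrophage markers was 4.45 to 5.47 and 10.1 to 11.2 FPKM. The part of cell composition in the members' shift was not tested, and in bulk RNA fewer cells of a type and less RNA per cell cannot be told apart.

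The members with the smallest p-values show the size of the differences. 1700067P10Rik was at 83.7, 78.2 and 70.4 FPKM in Igf2bp3+/- and at 103, 109.7 and 111 FPKM in Igf2bp3-/- RNA-seq, which did not overlap (log2 change 0.48 ± 0.09, adjusted p = 0.115). 1700028P14Rik was at 208, 214 and 160.4 FPKM against 269.7, 317 and 351 FPKM (log2 0.69 ± 0.14, adjusted p = 0.128). This gene and 1700001P01Rik were called after centring on library medians, both with an adjusted p of 0.0475. How many of all genes were called after centring is not given here. In the other direction, 1700009C05Rik, a lincRNA of 6 exons, was at 8.76, 7.18 and 6.56 FPKM against 4.96, 4.08 and 4.56 FPKM (log2 -0.71 ± 0.14, adjusted p = 0.136), and 1700020G03Rik at 4.30, 5.03 and 4.46 FPKM against 3.80, 2.59 and 2.66 FPKM (log2 -0.61 ± 0.17, adjusted p = 0.197). For these 4 genes the genotypes did not overlap, and they were chosen by the smallest p-values of this same comparison. Their separation, like that of genes named below by genotype p-values, is thus part of the choice.

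**Figure D5:**
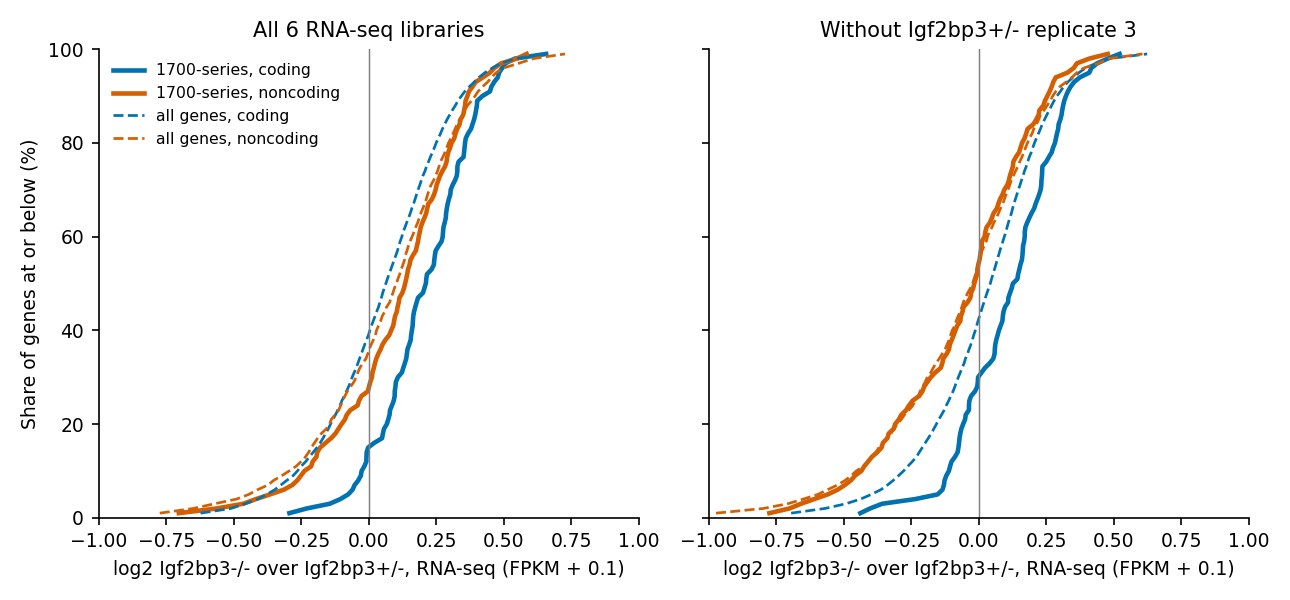
Cumulative share of genes (percent) by log2 change of RNA-seq FPKM + 0.1 in Igf2bp3-/- over Igf2bp3+/-, from all 6 RNA-seq libraries (left) and without Igf2bp3+/- replicate 3 (right), drawn from the 1st to the 99th percentile, for coding (blue) and noncoding (orange) members (solid) and all genes of the class with an RNA-seq mean of at least 1 FPKM (dashed). The coding members' median is 0.21 on the left and 0.13 on the right, and the noncoding members' 0.14 and -0.02.

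In RNC-seq no member passed the limit either, 0 of 427 where 0.115% of 19051 genes did (22 genes), with a smallest adjusted p of 0.595. At a nominal p under 0.05, 13 members were higher (3.04%) and 2 lower (0.468%), where 5.36% and 1.12% of all genes were. The median log2 change was 0.11 for coding and 0.00 for noncoding members, against 0.15 and 0.06 for all genes of each class. Centring on the library medians lowered all 4 values alike, to -0.0055 and -0.12 for the members and 0.03 and -0.06 for all genes. When single RNC-seq libraries were left out, the coding median ran from 0.02 without Igf2bp3+/- replicate 2 to 0.22 without Igf2bp3-/- replicate 2, and the noncoding median from -0.09 without Igf2bp3-/- replicate 3 to 0.16 without Igf2bp3-/- replicate 2. Members higher at a nominal p under 0.05 then numbered from 8 without Igf2bp3+/- replicate 3 to 30 without Igf2bp3-/- replicate 2, where 3.80% and 4.61% of all genes were. Those lower in these fits numbered 4 and 1, where 1.02% and 0.965% of all genes were. Without Igf2bp3-/- replicate 3, 25 members were higher and 13 lower (5.85% and 3.04%, where 9.20% and 1.68% of all genes were). 1700037H04Rik, the fourth most abundant coding member, was at 727, 798 and 742 FPKM in Igf2bp3+/- and 1043, 1561 and 1030 FPKM in Igf2bp3-/- RNC-seq (log2 0.65 ± 0.22, adjusted p = 0.683), without overlap. 1700012D14Rik was at 0.892, 1.07 and 1.32 FPKM against 2.04, 2.35 and 1.73 FPKM (log2 0.85 ± 0.28, adjusted p = 0.688). 1700016K05Rik was lower in Igf2bp3-/-, with 62.8, 44.4 and 40.2 FPKM against 28.4, 15.7 and 31.0 FPKM (log2 -1.004 ± 0.28, adjusted p = 0.595), and 1700003I22Rik had 125, 102 and 98.9 FPKM against 78.2, 55.4 and 89.3 FPKM (log2 -0.57 ± 0.22, adjusted p = 0.745).

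Translation efficiency (TE), the RNC-seq over the RNA-seq level, was compared between genotypes by the interaction of assay and genotype. No member passed, 0 of 427 where 0.00543% of 18414 genes did (1 gene), with a smallest adjusted p of 0.686. At a nominal p under 0.05, 10 members had a higher TE (2.34%) and 5 a lower one (1.17%), where 5.54% and 1.58% of all genes did. No coding member was among these 15. The median log2 change in TE was -0.09 for coding members and -0.12 for noncoding members, against 0.08 and -0.04 for all genes of each class. Over the 427 members the median of -0.12 became 0.03 once replicate 2 of Igf2bp3-/- RNC-seq was left out, 0.04 in the absence of Igf2bp3+/- RNA-seq replicate 3 and close to 0 in that of Igf2bp3+/- RNC-seq replicate 1. It reached -0.22 when the third Igf2bp3-/- RNC-seq library was left out, and -0.25 after centring, which moved the median of all genes by the same amount, from 0.06 to -0.07, and brought 3 members higher and 41 lower at the same nominal limit (0.703% and 9.60%, where 2.67% and 5.87% of all genes were). The 2 smallest p-values for a higher TE belonged to 1700009C05Rik (log2 1.06 ± 0.26, adjusted p = 0.686) and 1700020G03Rik (log2 1.2998 ± 0.36, adjusted p = 0.686), the same genes that were named above for a lower RNA-seq level in Igf2bp3-/-. Their RNC-seq levels were 2.80, 2.57 and 2.01 FPKM against 2.92, 3.42 and 3.10 FPKM, and 1.51, 1.57 and 1.31 FPKM against 2.93, 3.12 and 1.53 FPKM. The antisense transcripts 1700126G02Rik (27.7% of exonic bases against Etnk1) and 1700099I09Rik (24.2% against Mast4) had the smallest p-values for a lower TE, with log2 changes of -0.77 ± 0.28 and -0.74 ± 0.30, each with an adjusted p of 0.686.

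At the edge of the selection, the 3 members just inside were 1700054M17Rik, 1700047N06Rik and 1700021P04Rik, with RNA-seq means of 1.01, 1.02 and 1.05 FPKM and RNC-seq means of 2.38, 1.07 and 1.51 FPKM. Just outside were 1700011C11Rik, 1700015C17Rik and 1700044C05Rik, with RNA-seq means of 0.965, 0.919 and 0.894 FPKM and RNC-seq means of 1.36, 0.990 and 1.34 FPKM. All 6 are noncoding, and raising the minimum to 5 FPKM gave medians of 0.49 for coding and 0.68 for noncoding members.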

How the data were processed

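RNA-seq and RNC-seq were measured in 12 libraries, 3 for each of 4 groups. Per the labels and the study's methods, the authors trimmed reads with Trim Galore 0.6.6, aligned them to GRCm38 with HISAT2 and deposited FPKM values computed by StringTie 2.1.7. The annotation release, and whether strand was used, are not given in the sources used here, and the labels and the methods describe different library kits. A change in a few very abundant transcripts shifts the FPKM of every other gene of a library.

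The members and the lists compared with them were chosen with earlier results of these data known. Symbols were matched to GENCODE M21 (GRCm38; 418 of 427 members) and RefSeq (GRCm38.p6; 356 members). Of 28668 symbols, 25 had been turned into dates and were left out (0.0995% of summed FPKM). Tests used limma 3.58.1 in R 4.3.3 with a mean-variance trend on log2(FPKM + 0.1), for genes with a mean above 0.1 FPKM in the libraries compared (in each assay for TE), Benjamini-Hochberg adjusted, limit 0.05, two-sided. On this scale the changes of weakly expressed genes come out too small. The tests were also run on simulated libraries with independent noise for each gene. Those held no shift of a whole library, so they do not bear on the shifts between libraries described above. RNC/RNA is the mean of the 2 genotypes' differences. A copy was called near-identical where BLAST 2.17.0 aligned 50% or more of a gene's longest transcript to another locus with an identity of 95% or more. The labels number the replicates without naming animals, so p-values measure the spread between these libraries. Named members are, per class, the 6 with the highest RNA-seq mean and the 5 highest and 5 lowest ratios, the 2 smallest p-values per direction in each genotype test, and 3 on each side of the FPKM minimum. Members under a newer name, with a printed promoter or called under an alternative were added afterwards.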

Additional observations from a re-analysis of the deposited data

How the results depend on the processing

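FPKM values without counts limit the precision, and genes near 1 FPKM rested on 18.2 fragments per kb in the shallowest library. Quantile normalization gave 19 coding members lower in RNC-seq, a coding median log2 RNC/RNA of 0.28 and a coding minus noncoding difference of -0.38. In Igf2bp3-/- libraries alone, with fewer samples, 28 coding members were higher and 2 lower, and 109 noncoding members were higher and 6 lower. A further requirement of a 2-fold difference left 13 and 0 coding and 60 and 5 noncoding members (all coding genes 5.21% and 14.1%, all noncoding genes 12.6% and 6.85%). Noncoding members lower in RNC-seq numbered 9 at an RNA-seq mean of at least 5 FPKM and 11 without shared exons, both sets being smaller. For genotype in RNA-seq, centring gave 2 called members, and leaving out single libraries 0 to 1. Apart from the construction of the smaller sets, the cause was not tested. No share of all genes called is given for the Igf2bp3-/- fit, the smaller sets or the genotype fits, so these counts describe the members alone. For 1700010I14Rik, log2 RNC/RNA was -0.02 and became 0.10 after centring and 0.15 in Igf2bp3+/- alone, and -0.0602 to 0.0494 across the fits that left out a library. Over 43 named genes, 746 alternative values kept direction and side of the limit, 11 gained and 26 lost the call, and 4 reversed.

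Input and polysome RNA were taken from the same extracts, but no source used here says that the replicate number marks the extract. Within a genotype the deviations of libraries sharing a number correlated between the assays at -0.104 to 0.205, over 0.1 in 4 of 6 pairs, so pairing by number was not established. With the replicate block, 58 coding members were higher and 10 lower, 208 noncoding members higher and 20 lower, and 0 members were called by genotype in RNA-seq, RNC-seq or TE. The shares of all genes called under the block are not given here, so these counts too describe the members alone.

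Limited to transcripts above 500 and up to 1500 bases, a choice made after seeing the data, the medians were 0.57 for coding and 0.66 for noncoding members, a difference of -0.09. Without near-identical copies, also chosen later, they were 0.47 and 0.64.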
